A study of Homo sapiens with 12 samples.

Results

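The genes described here encode the centromere, the kinetochore and the spindle checkpoint. They were chosen by name, as a list of 42 components of these structures, and 42 of the 42 passed the filter on low values, against 14204 of the 26441 genes in the table. The kinetochore is the protein assembly that each chromosome builds on its centromere and by which the chromosome is held and moved by spindle microtubules. Its inner layer sits on nucleosomes that hold the histone variant CENP-A, and its outer layer grips the microtubule. The spindle checkpoint delays anaphase while any kinetochore is still unattached. Many of these genes are transcribed mainly from late S phase to mitosis in dividing cells, so their mRNA in a culture also follows how many cells are cycling.

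CXCR7 is an atypical chemokine receptor, listed in the table under its current symbol ACKR3. RNA was taken from LNCaP-EnzR cells under 2 µM and C4-2B-EnzR cells under 10 µM enzalutamide, 4 days after infection with a lentivirus that carried the empty pLKO vector (LKO) or a short hairpin against CXCR7 (shCXCR7). LNCaP cells come from a metastasis of human prostate cancer and C4-2B cells are their castration-resistant descendants. The EnzR cells had been grown in the androgen receptor inhibitor enzalutamide until they resisted it, so that control and knockdown (KD) cells alike were resistant and exposed to the drug. There were 3 libraries in each of the 4 groups by the labels, which were followed, whereas the text of the study describes the C4-2B-EnzR sequencing as duplicate. The sample titles also carry a code of a letter and a number, shared within each line and different between the lines, which they do not explain. The hairpin used was not given in the sources used here. Whether replicates were separate cultures is not stated either, so a p-value here speaks of spread among libraries that may be technical.

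The unit is rescaled RPKM, which is the deposited RPKM (reads scaled to gene length and library total) multiplied by a median-of-ratios factor for each library within its cell line. Reads in genes came to between 6381634 and 9833689 per library, and a member had from 6 reads (CENPP) to 2450 reads (CENPF) in a library, with a median of 156. A single LNCaP-EnzR library, shCXCR7 replicate 3, was unlike the rest. It listed 1636 genes at 0 against 8719 to 9652 in the other 11 libraries, its deposited RPKM summed to 104659 against 244055 to 282066, and its factor was 2.0002. LNCaP-EnzR results are therefore given with and without it. ACKR3 checked the labels, with rescaled RPKM of 122, 117 and 111 in LNCaP-EnzR LKO and 55.8, 50.6 and 41.6 in LNCaP-EnzR shCXCR7 libraries, and with 83.9, 86.5 and 85.7 in C4-2B-EnzR LKO and 22.2, 23.7 and 19.0 in C4-2B-EnzR shCXCR7 libraries, with no overlap in either line. All 8 luminal prostate markers were above 0 in every group, and the deposited RPKM of the list summed to between 431 and 565 per library, or 178 in the library that stood apart. Sums over 5 blood markers reached at most 2.57 and sums over 3 kidney embryonic markers at most 0.782, both in LNCaP-EnzR shCXCR7 libraries, and sums over 6 fibroblast markers ranged from 3.82 to 11.4 over the 12 libraries. COL1A1 made up most of the fibroblast sums, and its log2 fold change was 0.12 in LNCaP-EnzR (adjusted p = 0.457) and -0.14 in C4-2B-EnzR cells (adjusted p = 0.404). PDGFRB, another of these markers, moved with the KD in both lines. Its rescaled RPKM was 0.133, 0.228 and 0.114 in LNCaP-EnzR LKO and 0.461, 0.628 and 1.35 in shCXCR7 libraries (log2 fold change 1.30, adjusted p = 0.0364, and below the filter on low values without replicate 3). In C4-2B-EnzR cells PDGFRB had 0.13, 0.0361 and 0.111 in LKO and 0.34, 0.367 and 0.38 in shCXCR7 libraries (0.85, adjusted p = 0.0105). The kidney marker PAX2, too low to be tested, also had every KD library above every control in both lines, at no more than 0.397. LHX1 and SALL1, the rest of that list, did not, and were at 0 in every C4-2B-EnzR library. In LNCaP-EnzR cells they had 0.466 and 0.701 rescaled RPKM in shCXCR7 replicate 3, and SALL1 had 0.0152 in LKO replicate 3. Both were at 0 in the remaining LNCaP-EnzR libraries. The part of these markers in the results was not tested.

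CXCR7 KD in C4-2B-EnzR cells was followed by lower mRNA of most kinetochore genes. At an adjusted p under 0.05 from limma, 28 of the 42 members were lower, where 19.5% of all genes tested were lower. Of the members, 0 were higher, against 19.4% of all genes, and 0 were higher at an unadjusted p under 0.05 or by limma's voom on whole reads. The fall was 2-fold or more in 24 members, against 3.6% of all genes. The median log2 fold change of the members was -1.13, with a range from -2.09 (CENPF) to 0.26 (CENPH), and that of all genes was 0. In 30 members every shCXCR7 library lay below every LKO library, which was so for 26% of all genes. In bulk RNA, fewer cells in which a gene is transcribed and less RNA of that gene per cell cannot be told apart.

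In LNCaP-EnzR cells the median member lay close to that of all genes. Of the 42 members 9 were lower, against 19.1% of all genes, and 3 were higher, against 16.8%, with a median log2 fold change of -0.02 where that of all genes was 0.03. Without shCXCR7 replicate 3, 8 members were lower, against 21.1% of all genes, and 4 were higher, against 20.3%, with a median of -0.09. With all libraries the lower members were CENPB, HJURP, CENPO, MIS12, NUF2, ZWINT, CENPF, BUB3 and PTTG1, and the higher ones were CENPH, ZW10 and MAD2L2. Without replicate 3, MIS12 and PTTG1 no longer passed. By limma CENPM was then lower (log2 fold change -0.71, adjusted p = 0.0124) and CENPQ higher (0.36, adjusted p = 0.0209). In 11 members every shCXCR7 library lay below every LKO library, against 24.5% of all genes. On the RPKM as deposited, without rescaling, 0 members passed in either direction in LNCaP-EnzR cells (at an unadjusted p under 0.05, 4 were lower and 0 higher), and the median of all genes moved to -0.28 and that of the members to -0.33. Of the 28 members lower in C4-2B-EnzR, 7 were also lower and 21 were not called in LNCaP-EnzR cells, where 19.1% of all genes were lower.

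**Figure D1:**
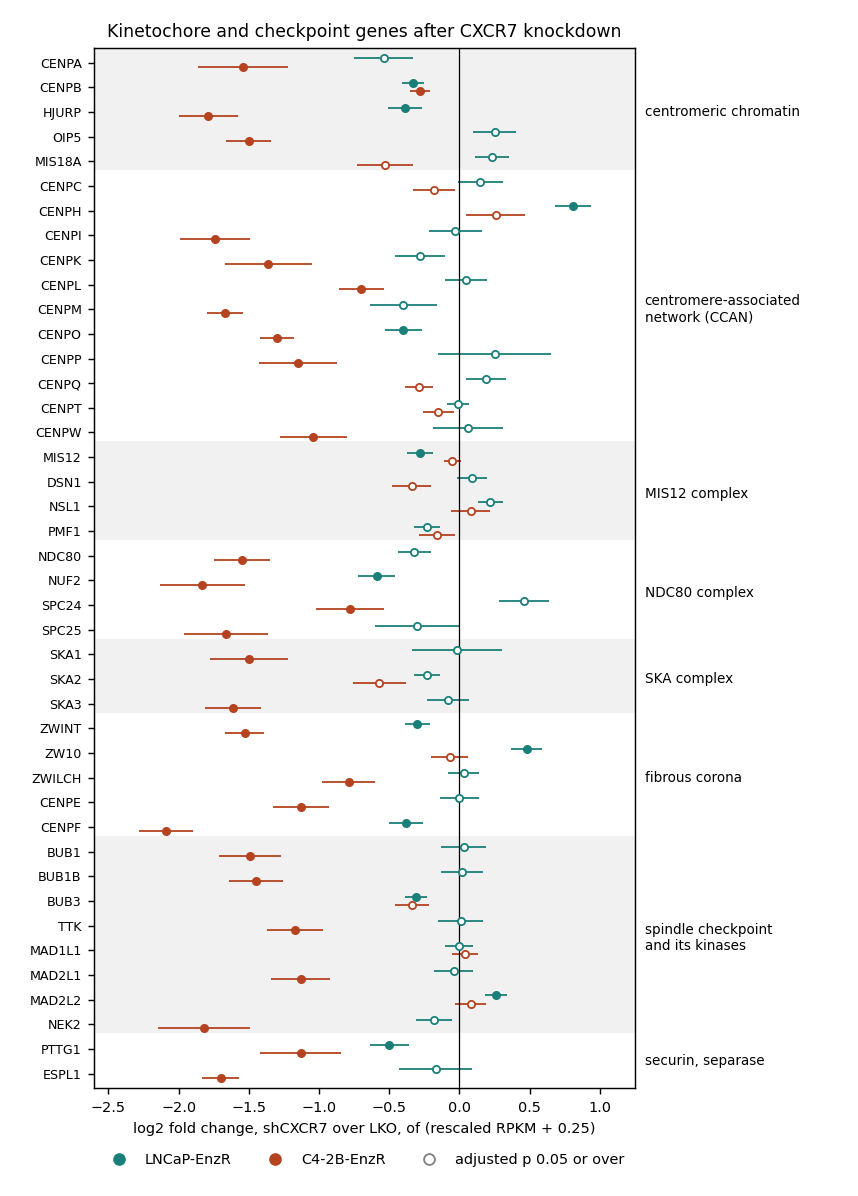
Log2 fold change (shCXCR7 over LKO, on the log2 scale of rescaled RPKM plus 0.25) of the 42 members in LNCaP-EnzR (teal) and C4-2B-EnzR cells (orange), ordered by role, with bars of 1 standard error and filled points at an adjusted p under 0.05. The C4-2B-EnzR points lie left of 0 in 38 of 42 members, with CENPF farthest at -2.09, while the 4 genes of the MIS12 complex stay between -0.34 and 0.08.

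The effect of KD differed between the lines for 21 members by the interaction term over the 12 libraries, each more negative in C4-2B-EnzR, where 5.96% of all genes were more negative. For 0 members was it more positive (0 unadjusted, 0 by voom). Without LNCaP-EnzR shCXCR7 replicate 3 the number was 19, and on the RPKM as deposited it was 0. Cell line, enzalutamide dose (2 µM in LNCaP-EnzR, 10 µM in C4-2B-EnzR) and the code in the sample titles went together. They cannot be told apart in these differences. The KD was also less deep in LNCaP-EnzR cells, by the ACKR3 values given above. The members with differing effects came from 7 of the 8 role groups, all but the MIS12 complex. They were 2 of 5 of the centromeric chromatin genes, 4 of 11 of the centromere-associated network, 3 of 4 of the NDC80 complex, 2 of 3 of the SKA complex, 4 of 5 of the fibrous corona, 5 of 8 of the checkpoint genes and 1 of the securin and separase pair.

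Many promoters of genes that peak in G2 and mitosis hold a cell cycle genes homology region, or CHR (TTTGAA or TTTAAA), bound by the DREAM and MYB-MuvB complexes, and a CCAAT box, bound by NF-Y. RefSeq gave a promoter window in GRCh38.p14, from 250 bases before to 50 bases after a start, for 36 of the 42 members. BUB3, TTK, CENPH, CENPL, CENPM and MIS18A had none in the table, and the window of CENPI starts from a point 2854 bases inside its gene. Read on both strands, a CHR word was present in 15 of the 22 windows of members that fell 2-fold or more in C4-2B-EnzR cells (68.2%), in 2 of the 14 other members' windows (14.3%) and in 24.3% of 27305 promoters. Without CENPI the first share was 15 of 21 (71.4%). The 2 were those of CENPC and ZW10. A CCAAT word was present in 59.1% and 57.1% of the same windows of members and in 35.7% of all promoters, so it did not separate the members in this way. Any of 4 E2F words (TTTGGCGC, TTTGCCGC, TTTCGCGC or TTTCCCGC) was present in 9.09%, 7.14% and 3.33%. No 2 of these kinds of word can occupy the same bases in full, and matches may overlap in part. No test was run on these shares, and a word in a window is a description, not a bound site.

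The 150 bases before the start are shown for 5 members that fell 2-fold or more and hold a CHR word, and then for 3 that fell less or were not called and hold none, so that the words can be read in their places. They run 5′ to 3′ on the strand of the gene, with CHR, CCAAT and E2F words in capitals, on either strand (TTCAAA and ATTGG are the reverse forms). The windows lie upstream of the transcription start in CENPA, chr2:26785906-26786055 (+ strand), HJURP, chr2:233854536-233854685 (- strand), CENPE, chr4:103198344-103198493 (- strand), CENPF, chr1:214603045-214603194 (+ strand), ESPL1, chr12:53268149-53268298 (+ strand) and in CENPB, chr20:3786741-3786890 (- strand), MIS12, chr17:5486224-5486373 (+ strand), MAD1L1, chr7:2232946-2233095 (- strand).
CENPA: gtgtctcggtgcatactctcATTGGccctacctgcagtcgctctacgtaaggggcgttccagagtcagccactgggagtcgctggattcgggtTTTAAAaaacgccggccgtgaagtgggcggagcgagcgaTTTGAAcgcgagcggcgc
HJURP: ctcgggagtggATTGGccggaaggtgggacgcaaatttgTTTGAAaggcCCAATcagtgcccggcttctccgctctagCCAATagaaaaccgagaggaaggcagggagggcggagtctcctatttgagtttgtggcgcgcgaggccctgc
CENPE: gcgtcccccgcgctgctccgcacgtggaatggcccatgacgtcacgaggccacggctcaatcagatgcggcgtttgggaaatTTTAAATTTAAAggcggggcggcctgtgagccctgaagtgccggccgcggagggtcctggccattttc
CENPF: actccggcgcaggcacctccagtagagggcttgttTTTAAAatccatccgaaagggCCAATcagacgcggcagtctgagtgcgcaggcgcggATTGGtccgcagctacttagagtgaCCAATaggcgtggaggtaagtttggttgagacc
ESPL1: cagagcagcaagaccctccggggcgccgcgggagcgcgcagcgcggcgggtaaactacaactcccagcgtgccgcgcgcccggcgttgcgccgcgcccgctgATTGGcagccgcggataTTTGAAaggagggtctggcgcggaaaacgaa
CENPB: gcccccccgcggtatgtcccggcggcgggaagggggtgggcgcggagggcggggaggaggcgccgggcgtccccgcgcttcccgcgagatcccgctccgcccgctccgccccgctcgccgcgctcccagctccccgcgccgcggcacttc
MIS12: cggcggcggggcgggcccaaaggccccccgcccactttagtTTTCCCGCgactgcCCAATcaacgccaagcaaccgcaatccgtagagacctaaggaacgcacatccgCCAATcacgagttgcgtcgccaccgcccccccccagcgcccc
MAD1L1: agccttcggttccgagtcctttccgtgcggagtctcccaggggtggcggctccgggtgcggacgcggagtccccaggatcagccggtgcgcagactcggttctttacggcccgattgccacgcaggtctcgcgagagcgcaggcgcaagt

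CENPA has a pair of CHR words between its CCAAT word and its start, and CENPE has a pair side by side. CENPF and HJURP have CCAAT words near the CHR word. CENPB and MAD1L1 show no capitals, and MIS12 shows CCAAT words and an E2F word without a CHR. The 17 members with a CHR word had a median log2 fold change of -1.53 in C4-2B-EnzR and -0.3 in LNCaP-EnzR cells, and the 19 without one had -0.57 and 0.03, or -0.45 and 0.03 over the 18 left without CENPI. NEK2, OIP5 and BUB1 hold none in their windows and had log2 fold changes of -1.82, -1.5 and -1.49 in C4-2B-EnzR cells.

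**Figure D2:**
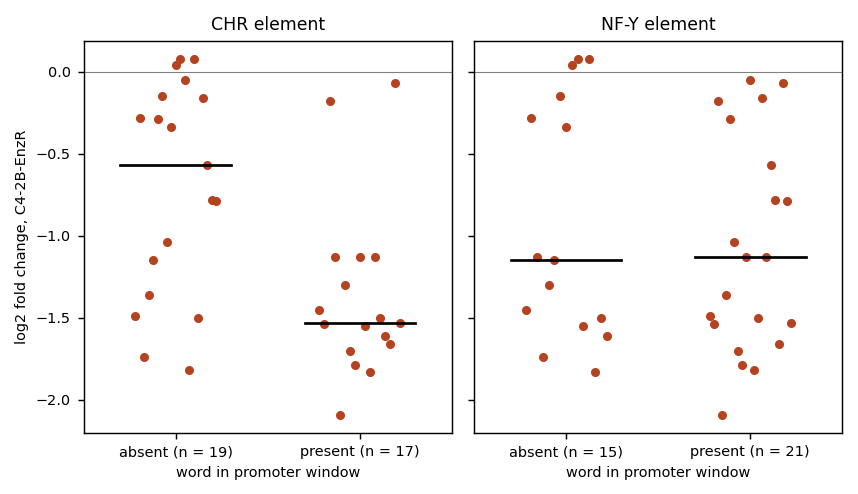
Log2 fold change in C4-2B-EnzR cells (y axis) of the 36 members with a promoter window, split by whether the window holds a CHR word (left) or the word of the NF-Y element (right), with 1 point a gene and bars at the medians. The medians are -1.53 with and -0.57 without a CHR word (where CENPI has a window far inside its gene), and -1.13 with and -1.15 without the NF-Y word.

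The centromeric chromatin group holds CENPA, the histone H3 variant that marks centromeres, CENPB, which binds a short motif in alpha satellite DNA, and the loading factors HJURP, OIP5 and MIS18A. Of these 5 genes, 4 were lower in C4-2B-EnzR cells and 2 in LNCaP-EnzR cells, with medians of -1.5 and -0.33. The shares of all genes that were lower were 19.5% and 19.1%. HJURP, the chaperone that delivers CENP-A, had rescaled RPKM of 8.75, 10.7 and 14.1 in C4-2B-EnzR LKO and 3.12, 3.62 and 2.36 in shCXCR7 libraries, or a mean of 11.2 ± 2.71 against 3.03 ± 0.634 (SD, n = 3 each). Groups stood well apart, with the lowest control more than 2 times the highest KD library, and the log2 fold change was -1.79 (standard error 0.21, adjusted p = 0.00136). In LNCaP-EnzR cells HJURP had 2.53, 2.96 and 2.69 in LKO and 2.01, 1.88 and 2.18 in shCXCR7 libraries, a log2 fold change of -0.39 (adjusted p = 0.0312, and 0.0239 without replicate 3). This smaller difference did not pass when any one of the other 5 libraries was left out, and the effects in the lines differed by -1.40 (adjusted p = 0.00353).

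CENPA itself had rescaled RPKM of 5.3, 10.3 and 11.1 in C4-2B-EnzR LKO and 3.28, 3.24 and 1.93 in shCXCR7 libraries, with -1.54 as log2 fold change (standard error 0.32, adjusted p = 0.0105). The KD libraries lay below each control library, and the control libraries spread about 2-fold among themselves. In LNCaP-EnzR cells CENPA had a log2 fold change of -0.54 (adjusted p = 0.0732). CENPB had 38.9, 36.8 and 41.7 in C4-2B-EnzR LKO and 32.2, 33.3 and 30.9 in shCXCR7 libraries, and 33.8, 35.5 and 36.5 against 27.2, 30.9 and 26.0 in LNCaP-EnzR cells. It was the member of its group that changed least in C4-2B-EnzR, with -0.28 there (adjusted p = 0.016, lost without shCXCR7 replicate 1 or 3) and -0.33 in LNCaP-EnzR cells (adjusted p = 0.0129, lost without LKO replicate 3). The interaction for CENPB was 0.05 (adjusted p = 0.801).

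OIP5, which marks centromeres for new CENP-A together with MIS18A, had opposite signs in the lines. Its rescaled RPKM were 12.1, 14.6 and 19.0 in C4-2B-EnzR LKO and 5.5, 5.09 and 4.8 in shCXCR7 libraries, with -1.5 as log2 fold change (standard error 0.16, adjusted p = 0.00103). In LNCaP-EnzR cells the values 2.23, 3.47 and 2.84 overlapped with 3.22, 3.25 and 3.68, and the log2 fold change of 0.25 did not pass (adjusted p = 0.245). OIP5 is uncertain as a measure of this gene alone, because 92.5% of the bases of its canonical exons in GENCODE 44 are shared with the opposite-strand genes OIP5-AS1, NUSAP1 and another, and the strand setting of the counting was not given. MIS18A had -0.53 in C4-2B-EnzR cells (adjusted p = 0.0809).

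The constitutive centromere-associated network (CCAN) is the inner kinetochore that binds CENP-A nucleosomes and carries the outer layer. In C4-2B-EnzR cells 7 of its 11 genes were lower (CENPI, CENPK, CENPL, CENPM, CENPO, CENPP and CENPW), against 19.5% of all genes. The median over the 11 was -1.04. In LNCaP-EnzR cells, with all libraries, CENPO was lower and CENPH higher, where 19.1% of all genes were lower and 16.8% higher. CENPI, a subunit of the CENP-H, I, K and M module, had rescaled RPKM of 2.54, 4.07 and 5.07 in C4-2B-EnzR LKO and 0.789, 0.989 and 1.08 in shCXCR7 libraries. KD libraries stood at 24.5% of the control mean, and the log2 fold change was -1.74 (standard error 0.25, adjusted p = 0.00261). In LNCaP-EnzR cells the values of CENPI were 1.07, 0.945 and 0.86 in LKO and 0.861, 0.941 and 1.01 in shCXCR7 libraries, and the groups overlapped with a log2 fold change of -0.03 (adjusted p = 0.932).

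CENPM, of the same module, fell by 1.67 on the log2 scale in C4-2B-EnzR cells (standard error 0.13, adjusted p = 0.000336). In LNCaP-EnzR cells CENPM had 3.08, 2.68 and 2.84 in LKO and 1.89, 1.46 and 3.34 in shCXCR7 libraries, where replicate 3 stood above the controls. Its log2 fold change there was -0.4 (adjusted p = 0.243), and -0.71 without replicate 3 (adjusted p = 0.0124). CENPH, which partners CENPK, went the other way from most members. It had rescaled RPKM of 4.72, 4.65 and 3.53 in LNCaP-EnzR LKO and 8.81, 7.52 and 6.78 in shCXCR7 libraries, with every KD library above every control and with 0.81 as log2 fold change (standard error 0.13, adjusted p = 0.00194). In C4-2B-EnzR cells the values 7.35, 9.21 and 13.7 overlapped with 11.1, 12.5 and 11.5, and the log2 fold change was 0.26 (adjusted p = 0.373, and 0.49 with adjusted p = 0.0258 without LKO replicate 3).

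CENPO, of the CENP-O, P, Q and U module, was lower in both lines, with log2 fold changes of -1.3 in C4-2B-EnzR (adjusted p = 0.000643) and -0.4 in LNCaP-EnzR cells (adjusted p = 0.041, lost without any one library other than shCXCR7 replicate 3). Of its exon bases 36.2% are shared with ADCY3 on the opposite strand. CENPL, which pairs with CENPN on the CENP-A nucleosome, fell by 0.70 in C4-2B-EnzR cells (adjusted p = 0.0155, lost without LKO replicate 2). CENPP had the fewest reads of the members and shares 45.5% of its exon bases with genes on the opposite strand. Its rescaled RPKM in LNCaP-EnzR shCXCR7 replicate 3 was 0.905 against 0.292 and 0.321 in the other KD libraries, and its fall of 1.15 in C4-2B-EnzR cells (adjusted p = 0.0186) was lost without shCXCR7 replicate 1 or 3, as was that of CENPW, a histone-fold partner of CENPT (1.04, adjusted p = 0.0159), which was also lost without LKO replicate 2.

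The other CCAN subunits, CENPC, CENPQ and CENPT among them, did not pass in C4-2B-EnzR cells. CENPT, the histone-fold protein that recruits NDC80 complexes, changed least in its group, with 28.2, 25.5 and 22.1 rescaled RPKM in LKO and 24.9, 21.5 and 21.6 in shCXCR7 libraries. The groups overlapped, the log2 fold change was -0.15 and its 95% interval ran from -0.40 to 0.10. CENPT had 22.2, 23.7 and 21.3 against 23.9, 22.4 and 20.5 in LNCaP-EnzR cells, a log2 fold change of -0.01. Of its exon bases 16.1% are shared with opposite-strand genes. CENPC, which ties the CENP-A nucleosome to the MIS12 complex, had -0.18 in C4-2B-EnzR cells (95% interval from -0.54 to 0.18), and CENPQ had -0.29 (adjusted p = 0.061).

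The MIS12 complex joins the inner kinetochore to the NDC80 complex. In C4-2B-EnzR cells 0 of its 4 genes passed, also at an unadjusted p under 0.05 (by voom 0, and 1 lower unadjusted), with a median log2 fold change of -0.10. Over all genes tested, 19.5% were lower and 19.4% higher there. DSN1 had the largest change of the 4, with rescaled RPKM of 8.96, 12 and 13.1 in LKO and 9.55, 8.47 and 8.5 in shCXCR7 libraries. The groups overlapped through LKO replicate 1, and the log2 fold change was -0.34 with a 95% interval from -0.68 to 0.01. In LNCaP-EnzR cells DSN1 had 6.49, 4.96 and 5.03 against 5.65, 5.85 and 5.95.

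MIS12 itself was the steadiest member of the group in C4-2B-EnzR cells, with 14.2, 15.6 and 15.2 in LKO and 14.6, 14.5 and 14.3 in shCXCR7 libraries, a log2 fold change of -0.05 and a 95% interval from -0.19 to 0.09. A fall as large as the members' median lies outside that interval. In LNCaP-EnzR cells MIS12 had 12.3, 11.7 and 13 against 10.8, 10.8 and 8.99, and -0.28 passed (adjusted p = 0.0412), but not without shCXCR7 replicate 3 (-0.19, adjusted p = 0.0572), shCXCR7 replicate 2 or any one LKO library. NSL1 and PMF1 had 0.08 and -0.16 in C4-2B-EnzR cells. PMF1 shares 53.7% of its exon bases with the PMF1-BGLAP read-through gene.

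The NDC80 complex is the main microtubule grip of the outer kinetochore, with NDC80 and NUF2 at the microtubule and SPC24 and SPC25 at the chromosome end. All 4 genes were lower in C4-2B-EnzR cells, with a median of -1.6, and 1 was lower in LNCaP-EnzR cells. The shares of all genes that were lower were 19.5% and 19.1%, so the LNCaP-EnzR count is near its background. NUF2 had rescaled RPKM of 9.85, 14.2 and 18.6 in C4-2B-EnzR LKO and 2.81, 5.4 and 3.28 in shCXCR7 libraries, with means of 14.2 ± 4.35 and 3.83 ± 1.38 (SD, n = 3 each). Both groups spread about 2-fold, yet they did not overlap, and the log2 fold change was -1.83 (standard error 0.30, adjusted p = 0.00436). With all libraries, NUF2 was also the member that fell most in LNCaP-EnzR cells, from 5.54, 5.59 and 5.54 to 4.44, 2.95 and 3.55. Its log2 fold change was -0.59 (adjusted p = 0.00859, and 0.0414 without replicate 3). Without replicate 3 the fall of CENPM was larger, at -0.71 against -0.59 for NUF2. The effects on NUF2 in the 2 lines differed by -1.24 (adjusted p = 0.0334). This difference no longer passed on leaving out any one of 9 of the 12 libraries, shCXCR7 replicate 3 of LNCaP-EnzR among them.

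NDC80 and SPC25 fell by 1.55 and 1.66 on the log2 scale in C4-2B-EnzR cells (adjusted p = 0.00177 and 0.00647). SPC24 changed least in the group and was the only subunit with a positive value in LNCaP-EnzR cells. In C4-2B-EnzR cells it had 8.31, 11.4 and 15.5 in LKO and 8.04, 6.15 and 5.62 in shCXCR7 libraries, which came close to meeting between LKO replicate 1 and shCXCR7 replicate 1. Its log2 fold change of -0.78 (adjusted p = 0.0408) did not pass without any one library other than LKO replicate 1. In LNCaP-EnzR cells SPC24 had 2.18, 3.23 and 3.37 in LKO and 3.48, 3.88 and 4.89 in shCXCR7 libraries, a log2 fold change of 0.46 (adjusted p = 0.0787), and the interaction of -1.23 (adjusted p = 0.0243) was lost on leaving out any one of 5 libraries, which were LNCaP-EnzR LKO replicate 1 and shCXCR7 replicate 3 and C4-2B-EnzR LKO replicate 2 and shCXCR7 replicates 2 and 3.

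The SKA complex tracks the ends of microtubules beside the NDC80 complex. SKA1 and SKA3 were lower in C4-2B-EnzR cells and 0 of the 3 genes passed in LNCaP-EnzR cells (1 lower and 0 higher unadjusted, and 0 by voom). Over all genes tested, 19.5% were lower in C4-2B-EnzR cells, and 19.1% were lower and 16.8% higher in LNCaP-EnzR cells. SKA3 had rescaled RPKM of 5.98, 8.38 and 10.8 in C4-2B-EnzR LKO and 2.36, 2.72 and 2.43 in shCXCR7 libraries, where the KD libraries were close together and well below the controls (log2 fold change -1.61, standard error 0.20, adjusted p = 0.00177). In LNCaP-EnzR cells SKA3 had 1.69, 1.38 and 1.65 against 1.34, 1.53 and 1.58, a log2 fold change of -0.08 (adjusted p = 0.736). SKA2 changed least, with 8.76, 11.9 and 14.5 against 8.15, 8.39 and 6.64 in C4-2B-EnzR cells. Its groups did not overlap, though -0.57 missed the threshold (adjusted p = 0.0543). In LNCaP-EnzR cells SKA2 had 6.19, 5.78 and 6.67 against 5.54, 5.25 and 4.94, a log2 fold change of -0.23 (adjusted p = 0.0664).

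**Figure D3:**
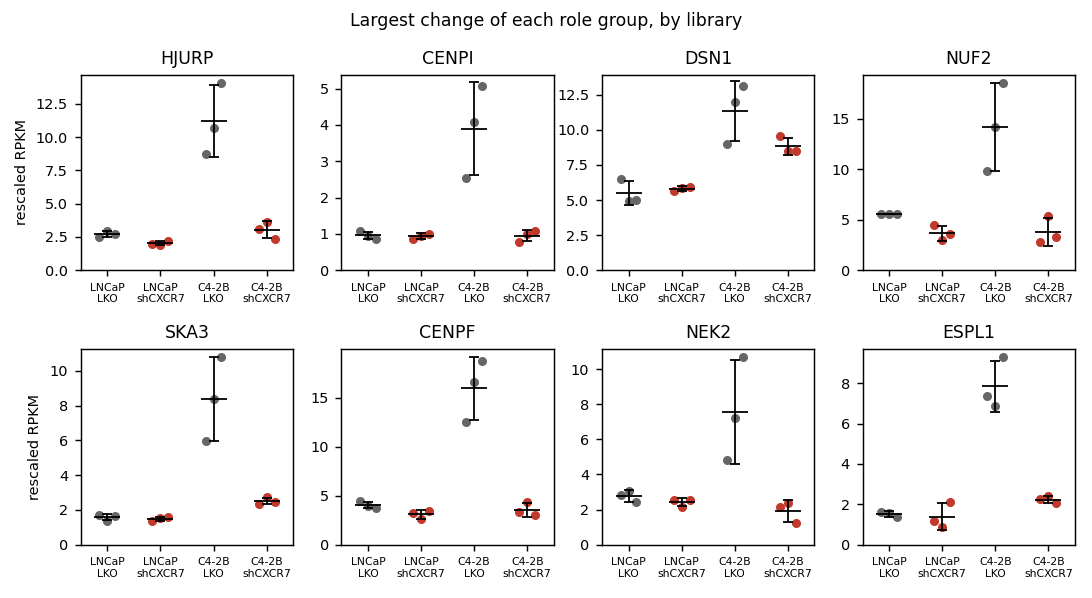
Rescaled RPKM in each library (points, grey for LKO and red for shCXCR7) of the member with the largest change in C4-2B-EnzR cells in each of the 8 role groups, with the group mean and SD (bars, n = 3), where LNCaP-EnzR and C4-2B-EnzR values were rescaled separately. In C4-2B-EnzR cells every panel but DSN1 shows KD libraries below all controls, as in HJURP, with 8.75 to 14.1 against 2.36 to 3.62.

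The fibrous corona is the outermost layer that forms on unattached kinetochores. Of its 5 genes, 4 were lower in C4-2B-EnzR cells, against 19.5% of all genes, with a median of -1.13. CENPF, a large coiled-coil protein of the G2 nucleus and the corona, had the largest fall of all members. Its rescaled RPKM were 12.5, 16.6 and 18.8 in C4-2B-EnzR LKO and 3.34, 4.34 and 2.99 in shCXCR7 libraries, with means of 16.0 ± 3.20 and 3.55 ± 0.70 (SD, n = 3 each). That is 22.2% of control, with no overlap between groups, and the log2 fold change was -2.09 (standard error 0.19, adjusted p = 0.000549). In LNCaP-EnzR cells CENPF had 4.4, 3.98 and 3.78 in LKO and 3.26, 2.58 and 3.39 in shCXCR7 libraries, a log2 fold change of -0.38 (adjusted p = 0.0414), which was lost without any one library other than shCXCR7 replicate 3. The effects differed by -1.71 (adjusted p = 0.000973).

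ZWINT, which links the scaffold KNL1 to the corona, was the most abundant member per kilobase in C4-2B-EnzR control cells, at 38.1, 43.1 and 55.6 rescaled RPKM. It stood at 14.6, 17.0 and 15 in shCXCR7 libraries, a log2 fold change of -1.53 (adjusted p = 0.000621). In LNCaP-EnzR cells ZWINT had -0.30 (adjusted p = 0.0298, lost without LKO replicate 1 or 2 or shCXCR7 replicate 2). CENPE, the kinesin that carries chromosomes to the spindle equator, fell by 1.13 in C4-2B-EnzR cells (adjusted p = 0.00582) and had 0.00 in LNCaP-EnzR cells (adjusted p = 0.991).

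ZWILCH and ZW10 are subunits of 1 complex that brings dynein to the kinetochore, and their values parted. ZWILCH fell by 0.79 in C4-2B-EnzR cells (adjusted p = 0.0191, lost without LKO replicate 2, shCXCR7 replicate 1 or shCXCR7 replicate 3). ZW10, which also acts in membrane traffic outside mitosis, had rescaled RPKM of 7.71, 9.1 and 10.1 in C4-2B-EnzR LKO and 7.74, 9.84 and 8.08 in shCXCR7 libraries. These groups overlapped fully, with a log2 fold change of -0.07 and a 95% interval from -0.38 to 0.25. In LNCaP-EnzR cells ZW10 had 5.06, 4.38 and 4.43 in LKO and 6.76, 7.24 and 5.76 in shCXCR7 libraries and rose by 0.48 (adjusted p = 0.00735, and 0.00637 without replicate 3).

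Among the 8 genes of the spindle checkpoint and its kinases, BUB1, BUB1B, TTK, MAD2L1 and NEK2 were lower in C4-2B-EnzR cells, and BUB3, MAD1L1 and MAD2L2 were not called. The median of the 8 was -1.15, and 19.5% of all genes were lower in these cells. NEK2, a centrosomal kinase that also acts at kinetochores, had rescaled RPKM of 4.8, 7.22 and 10.7 in LKO and 2.17, 2.35 and 1.22 in shCXCR7 libraries of C4-2B-EnzR cells. The controls spread more than 2-fold and still lay above each KD library, and the log2 fold change was -1.82 (standard error 0.33, adjusted p = 0.00644). In LNCaP-EnzR cells NEK2 had 2.84, 3.05 and 2.42 against 2.54, 2.15 and 2.53, a log2 fold change of -0.18 (adjusted p = 0.308).

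BUB1, the kinase that marks the inner centromere and recruits checkpoint proteins, had 7.81, 10.8 and 14.4 in C4-2B-EnzR LKO and 3.58, 4.25 and 3.15 in shCXCR7 libraries, a log2 fold change of -1.49 (adjusted p = 0.00325). In LNCaP-EnzR cells BUB1 had 2.01, 2.49 and 3.19 against 2.66, 2.58 and 2.53, with the KD libraries inside the range of the controls (0.03, adjusted p = 0.888). BUB1B, which as BubR1 is part of the mitotic checkpoint complex, had 10.1, 14.5 and 17.1 against 4.39, 5.35 and 4.71 in C4-2B-EnzR cells (-1.45, adjusted p = 0.00207). In LNCaP-EnzR cells BUB1B had 2.79, 2.54 and 2.66 against 2.97, 2.12 and 3.13, and the groups overlapped (0.02, adjusted p = 0.936). The interactions were -1.53 for BUB1 and -1.47 for BUB1B (adjusted p = 0.00509 and 0.00344), and 10.6% of the exon bases of BUB1B are shared with PAK6 and the read-through gene of both.

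TTK, the kinase also called MPS1 that starts checkpoint signalling, fell by 1.17 in C4-2B-EnzR cells (adjusted p = 0.00507), and MAD2L1, the MAD2 protein that holds CDC20, fell by 1.13 (adjusted p = 0.00685). The remaining checkpoint genes had smaller values. BUB3, which binds BUB1 and BubR1, had -0.34 in C4-2B-EnzR (adjusted p = 0.0661) and -0.31 in LNCaP-EnzR cells (adjusted p = 0.0186, lost without LKO replicate 2 or 3). MAD1L1, the kinetochore anchor of MAD2, had 8.78, 8.62 and 10.1 in C4-2B-EnzR LKO and 10.1, 9.42 and 8.8 in shCXCR7 libraries, a log2 fold change of 0.04 with a 95% interval from -0.18 to 0.25. In LNCaP-EnzR cells MAD1L1 had 7.22, 8.89 and 8.58 against 8.08, 8.79 and 7.69. Its exons are shared for 99.7% of their bases with a second annotated gene on the same strand. MAD2L2, a relative of MAD2 that serves translesion synthesis and DNA repair, rose by 0.26 in LNCaP-EnzR cells (adjusted p = 0.041, lost without any one library other than shCXCR7 replicate 3) and had 0.08 in C4-2B-EnzR cells.

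Securin (PTTG1) is the inhibitor that the checkpoint protects, and separase (ESPL1) is the protease it holds back until anaphase. ESPL1 had rescaled RPKM of 7.38, 6.86 and 9.28 in C4-2B-EnzR LKO and 2.24, 2.4 and 2.04 in shCXCR7 libraries, 2 narrow groups with no overlap. Its log2 fold change was -1.7 (standard error 0.13, adjusted p = 0.000328). In LNCaP-EnzR cells ESPL1 had 1.62, 1.55 and 1.37 in LKO and 1.19, 0.859 and 2.12 in shCXCR7 libraries, with replicate 3 above the controls, and a log2 fold change of -0.17 (adjusted p = 0.649, and -0.48 with adjusted p = 0.0609 without replicate 3).

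PTTG1 had 13.9, 16.8 and 27.2 in C4-2B-EnzR LKO and 8.86, 10.7 and 6.05 in shCXCR7 libraries. The groups did not overlap, and the fall of 1.13 (adjusted p = 0.023) was lost without LKO replicate 2, shCXCR7 replicate 1 or shCXCR7 replicate 3. In LNCaP-EnzR cells PTTG1 had 9.5, 11 and 12 against 9.45, 6.56 and 7.01, a log2 fold change of -0.5 (adjusted p = 0.0247, and -0.44 with adjusted p = 0.106 without replicate 3, lost also without LKO replicate 2 or 3 or shCXCR7 replicate 2). PTTG1 has near-identical copies in the genome, so its reads may be split or shared among them, and its interaction of -0.64 did not pass (adjusted p = 0.252).

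Within the C4-2B-EnzR controls the members were not level. Of the 42 members, 35 were lowest in LKO replicate 1 and 37 were highest in LKO replicate 3, against 42.0% and 37.0% of all genes tested. Replicate 3 stood at a median of 1.62 times replicate 1 over the members, where the median over all genes was 1.01. Relative to the control mean, the median member stood at -0.33, 0.04 and 0.30 on the log2 scale in the LKO libraries and at -1.09, -0.91 and -1.29 in the shCXCR7 libraries. The medians of the KD libraries all lay below the lowest control median, by a gap about as wide as the spread of the controls. Without LKO replicate 1 the number of lower members was 31 and the median -1.35, and without LKO replicate 3 they were 26 and -0.95. In LNCaP-EnzR cells the same medians were 0.05, 0.01 and -0.01 in LKO and -0.05, -0.19 and 0.00 in shCXCR7 libraries.

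**Figure D4:**
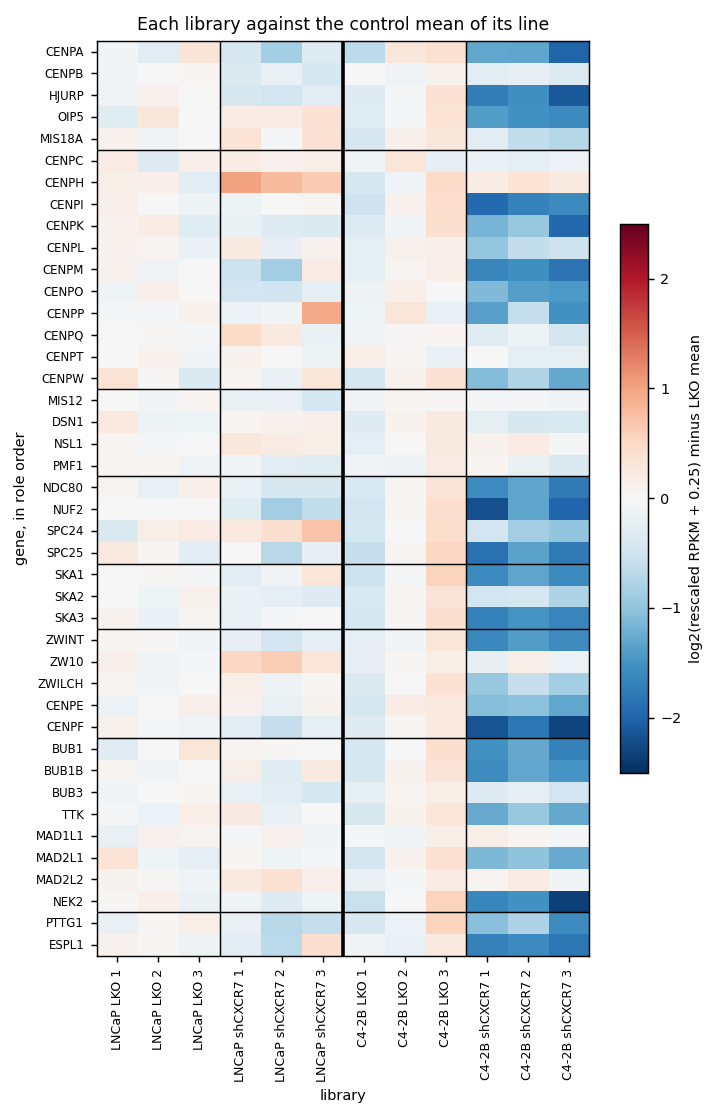
Difference of log2(rescaled RPKM + 0.25) from the mean of the 3 LKO libraries of the same line, for each of the 42 members (rows, in role order, with lines between role groups) and 12 libraries (columns), blue for lower and red for higher. The C4-2B-EnzR shCXCR7 columns are blue in most rows, with library medians of -1.09, -0.91 and -1.29, and C4-2B-EnzR LKO replicate 1 is paler blue at -0.33.

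In LKO cells, which carried the empty vector, most members were more abundant in C4-2B-EnzR than in LNCaP-EnzR cells. The C4-2B-EnzR controls were under 10 µM and the LNCaP-EnzR controls under 2 µM enzalutamide. Line, dose and the code in the sample titles cannot be told apart. With factors over the 6 control libraries, 31 of 42 members were higher in C4-2B-EnzR, against 31.7% of all genes, and NSL1 was lower, where 30.6% of all genes were lower. The median log2 difference was 0.87. OIP5, BUB1B, SKA3 and ESPL1 had the largest, at 2.05, 1.98, 1.95 and 1.93. With factors over all 12 libraries, the median member stood at 3.24 RPKM in LNCaP-EnzR LKO, 3.73 in LNCaP-EnzR shCXCR7, 9.32 in C4-2B-EnzR LKO and 3.75 in C4-2B-EnzR shCXCR7 cells. After KD the C4-2B-EnzR level was a median of 0.891 times the LNCaP-EnzR control level, and it was above that level in 16 members. This comparison and the KD effect in C4-2B-EnzR use the same LKO libraries, so their values are set side by side and no relation between them is given. For CENPF the difference between control cells was 1.63 and the KD effect in C4-2B-EnzR -2.09, for MAD1L1 -0.12 and 0.04, for MIS12 -0.01 and -0.05, and for ZW10 0.64 and -0.07. The median level in C4-2B-EnzR control cells was 9.41 rescaled RPKM for the 28 members that were lower there after KD. It was 10.8 for the 14 that were not called. Whether this level bears on which members were lower was not tested.

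Other genes of the same machinery were read from lists of named complexes. Of 24 further kinetochore and checkpoint genes, 15 were lower and 0 higher in C4-2B-EnzR cells (0 higher also unadjusted, and 0 by voom), with a median of -0.55, where 19.5% and 19.4% of all genes were lower and higher. In LNCaP-EnzR cells 5 were lower and 4 higher, which is near the 19.1% and 16.8% of all genes. CASC5, the scaffold KNL1 that carries the BUB proteins, had rescaled RPKM of 5.3, 7.18 and 7.79 in C4-2B-EnzR LKO and 1.54, 1.94 and 1.48 in shCXCR7 libraries (-1.87, adjusted p = 0.000565). CDC20, the activator that the checkpoint restrains, had -1.65, the spindle protein SPAG5 -1.55 and the CCAN subunit CENPU -1.54 in C4-2B-EnzR cells. In LNCaP-EnzR cells CDC20 and SPAG5 fell by 0.42 and 0.53 (adjusted p = 0.00401 and 0.000692).

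The anaphase-promoting complex is the ubiquitin ligase that the checkpoint inhibits. The 18 genes listed for it include FZR1, UBE2C, UBE2S and FBXO5, which act with the complex and are not its subunits. Of the 18, 7 were lower and 4 higher in C4-2B-EnzR cells, where 19.5% of all genes were lower and 19.4% higher, and the median was -0.13. The higher count is near its background. The ubiquitin-conjugating enzymes of the complex were among the lower ones, with UBE2C at -1.72 and UBE2S at -1.26, as was its inhibitor FBXO5 at -1.13. These 3 were the only listed genes that fell 2-fold or more in C4-2B-EnzR cells. The small subunit ANAPC13 rose by 0.65 (adjusted p = 0.00613). UBE2S also fell in LNCaP-EnzR cells, by 1.28 on the log2 scale, from 30.1, 30.3 and 29.7 to 11.8, 13.6 and 11.5 rescaled RPKM. Its interaction was 0.02 with adjusted p = 0.95. All 6 genes of the chromosomal passenger complex and mitotic kinases were lower in C4-2B-EnzR cells, with AURKB at -2.16, BIRC5 at -2.06, PLK1 at -1.65 and INCENP at -1.39, and 3 of the 6 were lower in LNCaP-EnzR cells, against the same 19.5% and 19.1% of all genes. The MCM helicase acts in S phase rather than at the kinetochore. Of its 6 subunits, 5 were lower in C4-2B-EnzR cells, against 19.5% of all genes, and 3 in LNCaP-EnzR cells, against 19.1%. The largest changes in C4-2B-EnzR cells were those of MCM7, MCM3, MCM4 and MCM2, at -1.93, -1.49, -1.33 and -1.3. MCM6 was not called there, at -0.35. The part of a change in cycling cells in these values was not tested.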

How the data were processed

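Libraries were made with a NEBNext Ultra kit and sequenced single-end. The authors used STAR for alignment to hg38 (GRCh38), as the submitters' processing notes name them, and their deposited values, in a single table, are RPKM, which their methods call FPKM. For the counting, no annotation or strand setting was given in the sources used here. There are 26475 lines in the table, of which 32 are empty and 2 repeat a symbol. Here the deposited RPKM were multiplied by median-of-ratios factors within each line (over the 6 controls or all 12 libraries where said), and limma 3.58.1 (R 4.3.3) was fitted to log2(value + 0.25) with a variance trend in its empirical Bayes step, keeping genes that reached 0.5 RPKM in 3 of the 12 libraries. Fold changes are on that scale, which understates changes of low genes. P-values were Benjamini-Hochberg adjusted over the 14204 genes and called under 0.05.

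Whole reads were recovered from the steps of the RPKM values and used for depth and for voom. Members, lists and motifs were chosen with earlier results of these data known. By rule, library values are given for the members of each role group with the largest and smallest change in C4-2B-EnzR, and for up to 4 with differing effects of opposite sign, and 4 genes of each other list are named. Library values of CENPA, CENPH, CENPM, CENPP, ZWINT, UBE2S, PDGFRB and PAX2 were added after their values were seen. Coordinates and promoter windows are from RefSeq (GRCh38.p14), exons from GENCODE 44. Same-numbered LKO and shCXCR7 libraries did not deviate together. Alternatives were other pseudocounts, filters, scalings and fits, voom, a replicate block and leaving out each library. Background subtraction and factors from genes of at least 5 RPKM, and shares of motifs without windows over 1000 bases inside a gene, were added after the data were seen. Python 3.11.15, numpy 2.4.6, pandas 2.3.3, numba 0.67.0 and matplotlib 3.10.9 were used. The limma script was tested on simulated data.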

Additional observations from a re-analysis of the deposited data

Results flagged for a closer look

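The effect of CXCR7 KD differed between C4-2B-EnzR and LNCaP-EnzR cells, by the interaction term in limma, for 21 members. The values below are the log2 fold change in C4-2B-EnzR minus that in LNCaP-EnzR cells, and all are negative. In centromeric chromatin and the centromere-associated network they were OIP5 -1.75, HJURP -1.40, CENPI -1.72, CENPM -1.27, CENPO -0.90 and CENPL -0.74. In the NDC80 and SKA complexes they were NUF2 -1.24, NDC80 -1.23, SPC24 -1.23, SKA3 -1.54 and SKA1 -1.48. In the corona they were CENPF -1.71, ZWINT -1.23, CENPE -1.13 and ZWILCH -0.82. Among the checkpoint genes and separase they were NEK2 -1.64, BUB1 -1.53, BUB1B -1.47, TTK -1.18, MAD2L1 -1.10 and ESPL1 -1.52. The interactions of CENPL, NUF2, ZWILCH and SPC24 no longer passed without LNCaP-EnzR shCXCR7 replicate 3. These calls were also lost without other single libraries, for CENPL and NUF2 without any one of 9 libraries, for ZWILCH 8 and for SPC24 5. The interaction of SKA1 was lost without any one of 7 libraries (each LNCaP-EnzR LKO library, C4-2B-EnzR LKO replicates 2 and 3 and shCXCR7 replicates 1 and 3), and that of MAD2L1 without LNCaP-EnzR LKO replicate 2 or 3. OIP5 shares 92.5% of its exon bases with other genes. Every LNCaP-EnzR library was under 2 µM and every C4-2B-EnzR library under 10 µM enzalutamide. Line, dose and the code in the sample titles cannot be told apart. The KD itself was less deep in LNCaP-EnzR cells. Mean rescaled RPKM of ACKR3 went from 117 to 49.3 in LNCaP-EnzR and from 85.4 to 21.6 in C4-2B-EnzR cells. What sets the effects apart in these genes was not tested.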

How the results depend on the processing

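The fall of the members in C4-2B-EnzR cells kept its direction under every alternative run, with 20 to 31 members lower at an adjusted p under 0.05. Under stricter limits (a change of 2-fold, adjusted p under 0.001), 5 of the 28 members passed, and voom on whole reads gave 20 at these limits. Leaving out each library gave 22 to 31 lower members, 0 to 1 higher (CENPH, without LKO replicate 3) and a median of -1.35 to -0.95. The LNCaP-EnzR counts depended on the processing. Of the 9 lower members, 0 remained at the stricter limits and 0 as deposited, while 4 passed in 1 fit of all libraries, 5 with factors from genes of at least 5 RPKM, 3 with no filter and 4 without the variance trend. The 3 higher members became 0 at the stricter limits and 0 as deposited. The median of -0.02 became -0.21 by quantile normalization, -0.33 as deposited and -0.14 after subtraction of a background of 0.234 RPKM from shCXCR7 replicate 3. Leaving out each library gave 2 to 8 lower and 2 to 4 higher members and a median of -0.09 to -0.01, with the lowest number of lower members without LKO replicate 3. MAD2L2 turned from 0.26 to -0.07 as deposited. The 21 members with differing effects became 0 as deposited, where all genes counted 33 more negative and 20 more positive, and 16 to 30 without each library in turn, with 0 more positive throughout. The member lower in C4-2B-EnzR controls (NSL1) was 0 with no filter and 0 as deposited, and without each library the counts were 27 to 33 higher and 0 to 2 lower. Same-numbered samples share only a number, since no pair correlated above 0.1 in its deviations. A replicate block gave 25 lower members in C4-2B-EnzR, 7 lower and 4 higher in LNCaP-EnzR and 20 differing effects. The causes of these shifts were not tested. Depth limits CENPA, OIP5, CENPI, CENPK, CENPP, SPC24, SPC25 and SKA1, which had under 30 reads in some library.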
